A study of Mus musculus with 2 samples.

Results

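Lmo2, Ldb1 and Cbfa2t3 encode 3 proteins that work in one complex with the transcription factor Scl (also called Tal1), and the binding of Scl to the loci of these partner genes was measured. The members were named by gene, and are 3 of the 49997 genes in the RefSeq gene table. No measured value was used to choose them, although earlier results of these data were known. Each locus was a fixed interval of build mm9, 150 kb for Lmo2 on chromosome 2, 70 kb for Ldb1 on chromosome 19 and 170 kb for Cbfa2t3 on chromosome 8. Chromatin of HPC-7 cells, a mouse early blood progenitor line grown from embryonic stem cells in medium with stem cell factor, was fixed with 0.4% formaldehyde, sheared to 200 to 500 bp and precipitated with an antiserum to Scl. The DNA was sequenced in 3 portions. Sample 1 pools lanes 7 and 8, and sample 2 holds the remaining portion, which another site sequenced. Both samples form 1 group of 1 cell line with 1 treatment, and no input or control antibody sample was analysed here. Nothing in the labels gives separate cultures, so the samples were taken as technical repeats. Every interval and p covers counting error only.

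Scl is a basic helix-loop-helix protein that pairs with an E-protein and binds E-boxes, which read CANNTG. In blood progenitors Lmo2 bridges this pair to Ldb1 and to GATA factors, which bind GATA motifs, and Ldb1 can join complexes to each other. Cbfa2t3 (also called Eto2) is a corepressor that joins the same complex and recruits further repressor proteins.

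The 4 places where Scl binding was called all lay at Cbfa2t3. Their bases are shown because all 4 carry E-boxes and 3 also carry GATA motifs, which the complex is known to read. They were read from sample 2, the only sample with sequence, and are printed 5′ to 3′ on the plus strand of build mm8. Capitals mark E-boxes and GATA motifs on either strand, a GATA motif being AGATAA or AGATAG or else TGATAA or TGATAG. The regions are numbered from the gene outward. Region 1 is shown from chr8:125585253-125585411, region 2 from chr8:125586851-125587034, region 3 from chr8:125605851-125606150 and region 4 from chr8:125606592-125606797, each being the longest stretch with no unread base within 150 bp of the centre.
Cbfa2t3 region 1: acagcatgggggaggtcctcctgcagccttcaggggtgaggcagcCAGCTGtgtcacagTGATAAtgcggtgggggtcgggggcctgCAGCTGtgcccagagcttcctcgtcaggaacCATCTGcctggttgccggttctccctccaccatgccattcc
Cbfa2t3 region 2: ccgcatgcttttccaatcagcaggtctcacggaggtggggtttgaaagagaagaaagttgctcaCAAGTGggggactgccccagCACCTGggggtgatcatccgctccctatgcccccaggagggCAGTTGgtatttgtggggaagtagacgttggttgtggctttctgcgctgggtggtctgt
Cbfa2t3 region 3: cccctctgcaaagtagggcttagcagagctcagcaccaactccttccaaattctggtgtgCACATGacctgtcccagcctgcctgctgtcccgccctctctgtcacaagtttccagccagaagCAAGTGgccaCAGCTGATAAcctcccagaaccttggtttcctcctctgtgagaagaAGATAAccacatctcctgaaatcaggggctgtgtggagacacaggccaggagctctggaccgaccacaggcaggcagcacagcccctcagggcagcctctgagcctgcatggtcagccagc
Cbfa2t3 region 4: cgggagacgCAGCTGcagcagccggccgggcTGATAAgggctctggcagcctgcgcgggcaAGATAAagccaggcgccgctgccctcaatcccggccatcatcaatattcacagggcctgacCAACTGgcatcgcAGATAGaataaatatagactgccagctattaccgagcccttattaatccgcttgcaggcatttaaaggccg

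A distinct read is a read with its own chromosome, strand and 5′ end. Sample 1 held 5632119 distinct reads and sample 2 held 4150610, which is 0.593 and 0.437 reads per 200 bp on average over the genome. A region was called where a window of 200 bp had at least 5 times the reads of its background (the larger of the genome average and the surrounding 10 kb), an adjusted p under 0.01 in a one-sided exact Poisson test over all windows, and at least 20% of reads on each strand. By this rule 1521 regions were called in sample 1 and 776 in sample 2 over the whole genome.

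At Cbfa2t3, 4 regions were called in sample 1 and 4 in sample 2, and at Lmo2 and Ldb1 0 were called in either sample. Within the Cbfa2t3 locus, 20 of 3396 windows (0.589%) passed in sample 1, against 0.0073% of all windows of the genome, and 18 of 3396 (0.530%) passed in sample 2, against 0.00429%. The samples were aligned to different builds, so the Cbfa2t3 locus was found in mm8 by the offset at which read ends of both samples coincided. That offset gave 116 coincident ends, and the next best gave 22. With it, each of the 4 sample 1 regions overlapped a sample 2 region.

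**Figure D1:**
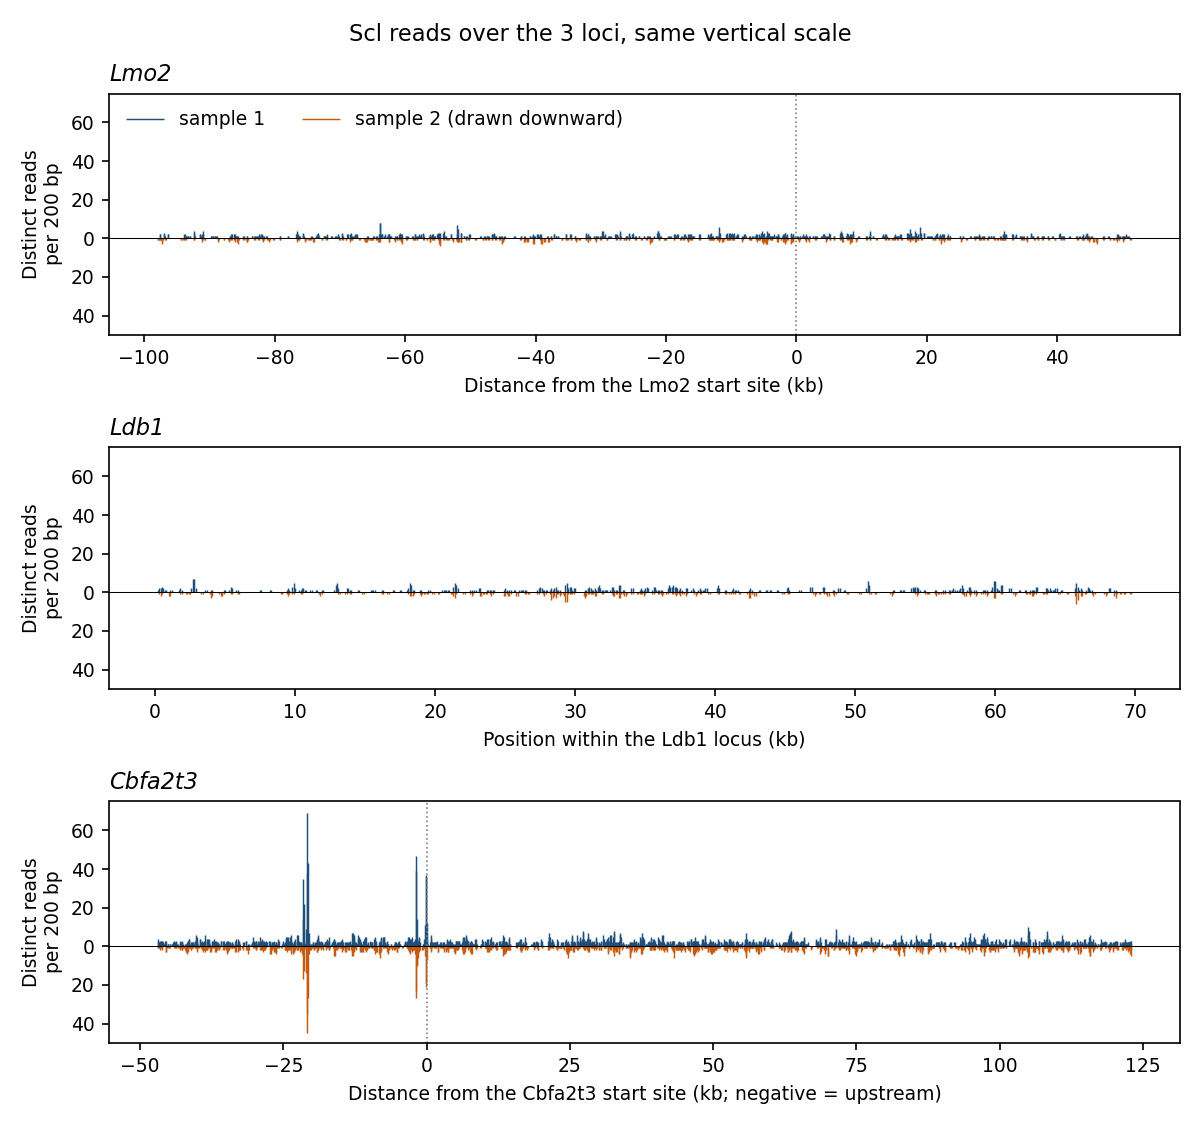
Distinct reads per 200 bp (vertical axis, the same in all panels) along the Lmo2, Ldb1 and Cbfa2t3 loci (horizontal axis, kb), with sample 1 drawn upward and sample 2 downward and the start site dotted where it is known. The 4 regions of Cbfa2t3 stand out in both samples, with up to 69 reads in sample 1 and 46 in sample 2, while no window reached more than 8 reads at Lmo2 or more than 7 at Ldb1.

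Cbfa2t3 is read from the minus strand, so positions upstream of it have higher coordinates. The 4 regions formed 2 groups, a pair at and just before the start site and a pair about 21 kb upstream. The start site was placed at mm8 position 125585199 by the 12 distinct sample 2 reads that match the RefSeq promoter sequence of the gene.

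Region 3 had the most reads of the 4. It spanned chr8:125243551-125244000 in mm9 and chr8:125605801-125606250 in mm8, with its best window 20.8 kb upstream of the start site. That window held 69 reads in sample 1 on a background of 4.36, and 46 in sample 2 on a background of 2.86. The enrichment was 15.8-fold in sample 1 (95% interval 12.3 to 20.03, adjusted p = 9.34e-51, exact Poisson test) and 16.1-fold in sample 2 (11.8 to 21.5, adjusted p = 4.31e-33, exact Poisson test). Among all called regions it ranked 25 of 1521 and 37 of 776 by reads.

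Region 2 came next in both samples and lay 1.79 kb upstream of the start site by sample 1, at chr8:125224651-125225050 in mm9 and chr8:125586851-125587200 in mm8. Its best window held 47 reads in sample 1 and 28 in sample 2. Those counts were 13.5-fold (9.92 to 17.96, adjusted p = 9.90e-31, exact Poisson test) and 12.1-fold (8.02 to 17.4, adjusted p = 7.00e-16, exact Poisson test) over the background. The intervals of regions 2 and 3 overlapped in each sample, so their order is within counting error.

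Region 1 overlapped the promoter, with its best window centred 0.142 kb upstream of the start site in sample 1 and 0.102 kb in sample 2. It spanned chr8:125222951-125223350 in mm9 and chr8:125585151-125585500 in mm8. The window held 40 reads in sample 1, 10.9-fold over the background (7.81 to 14.9, adjusted p = 1.79e-22, exact Poisson test), and 21 reads in sample 2, 9.13-fold (5.65 to 14.0, adjusted p = 4.83e-09, exact Poisson test).

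Region 4, 21.5 kb upstream and next to region 3, had the fewest reads of the 4 in both samples. It spanned chr8:125244301-125244650 in mm9 and chr8:125606501-125606850 in mm8. It held 35 reads in sample 1, 8.06-fold over the background (5.62 to 11.2, adjusted p = 2.34e-15, exact Poisson test), and 17 in sample 2, 5.94-fold (3.46 to 9.52, adjusted p = 3.02e-04, exact Poisson test). Its interval lay wholly below that of region 3 in both samples, the one pair of regions for which this held, and neighbours in the order 3, 2, 1, 4 were not separated. Region 4 was the one region close to the limit of the call in sample 2, where 5-fold was asked for. It ranked 84 of 1521 and 183 of 776 by reads, above the median region of either sample with 10 and 11 reads. By enrichment the picture differs, since the median called region had 12.9-fold in sample 1 and 16.0-fold in sample 2. Regions 1 and 4 lay below these medians in both samples. Region 2 lay above in sample 1 and below in sample 2, and region 3 lay above in both, barely so in sample 2 at 16.1-fold.

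Each of the 4 regions raises the local average that it is set against. With the called regions taken out of the surrounding 10 kb, the mean enrichment of both samples rose from 10.0 to 18.96-fold at region 1, from 12.8 to 24.9-fold at region 2, from 16.0 to 32.8-fold at region 3 and from 7.004 to 14.4-fold at region 4. The order of the regions was the same with either background.

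The 3 sequenced portions gave each region separately. In lane 7 the enrichment was 11.8, 13.2, 18.5 and 11.1-fold at regions 1 to 4. In lane 8 it was 11.3, 13.8, 15.3 and 7.10-fold. In both lanes region 3 was highest and region 4 lowest, as in sample 2. The share of reads from lane 7 was 27.9% at region 1, 28.6% at region 2, 31.5% at region 3 and 37.8% at region 4, where 28.6% of all distinct reads came from lane 7. None of the 4 shares differed from that value (adjusted p = 1.0 for each, two-sided exact binomial test over all sample 1 regions). At region 4, 14 reads came from lane 7 and 23 from lane 8, which leaves a 95% interval for the share of 22.5 to 55.2%.

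**Figure D2:**
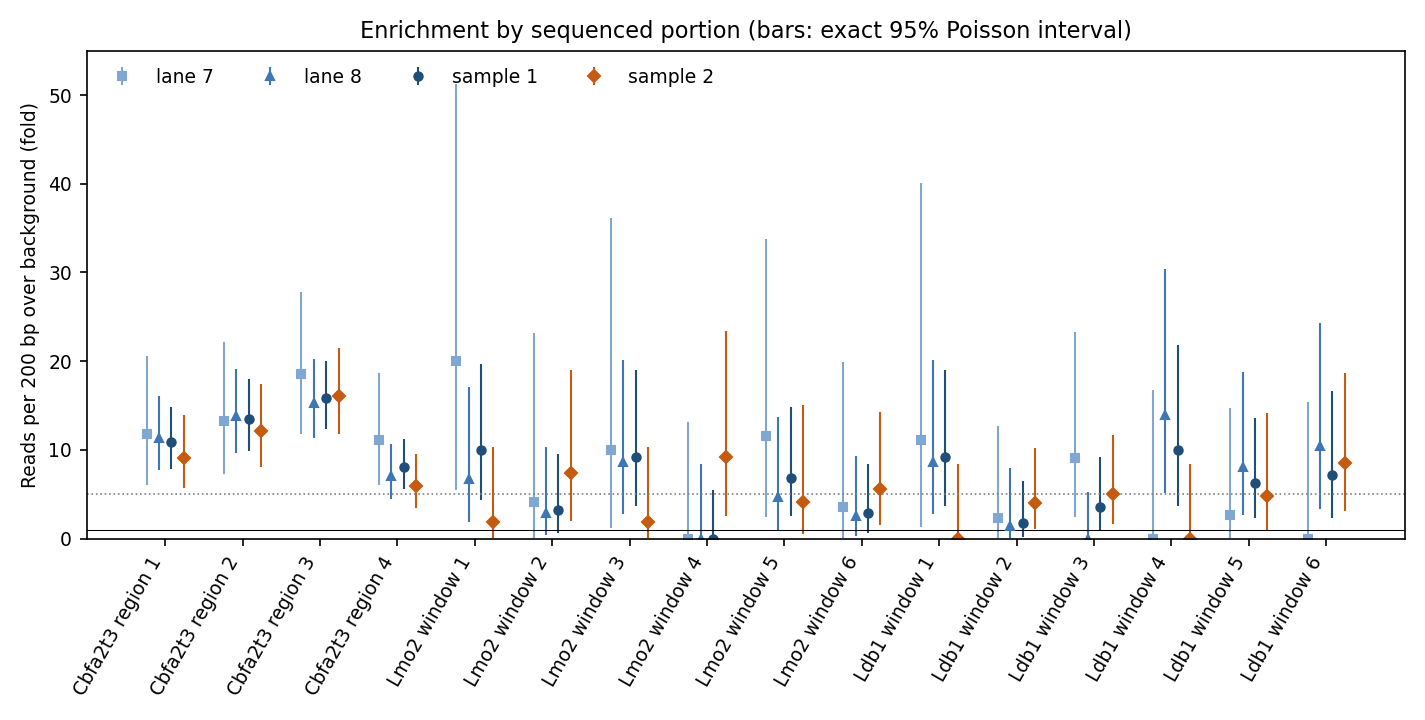
Reads per 200 bp over the background (vertical axis, fold) in lane 7, lane 8, sample 1 and sample 2, with exact 95% Poisson intervals, at the 4 called regions of Cbfa2t3 and at the 6 windows with most reads at Lmo2 and at Ldb1, with 5-fold dotted. The portions lie close together at the Cbfa2t3 regions, where sample 1 is the pool of both lanes. Several windows at Lmo2 and Ldb1 are high in 1 sample and near or at 0 in the other. Each of those windows was picked for its count in 1 sample, so a lower value in the other is partly built in.

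The reads of each strand were set apart, the form that sheared fragments around one site give in sequence data. The median minus end lay downstream of the median plus end by 146.5, 148.5, 117 and 118 bp at regions 1 to 4 in sample 1, and by 166, 163.5, 178 and 121.5 bp in sample 2. Regions 3 and 4, whose centres are 0.7 kb apart in sample 1, each had their own pair of strand peaks. Few reads were the same in both samples: 3, 8, 10 and 1 read ends at regions 1 to 4 occurred in both, of 57, 67, 105 and 51 distinct ends in all.

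**Figure D3:**
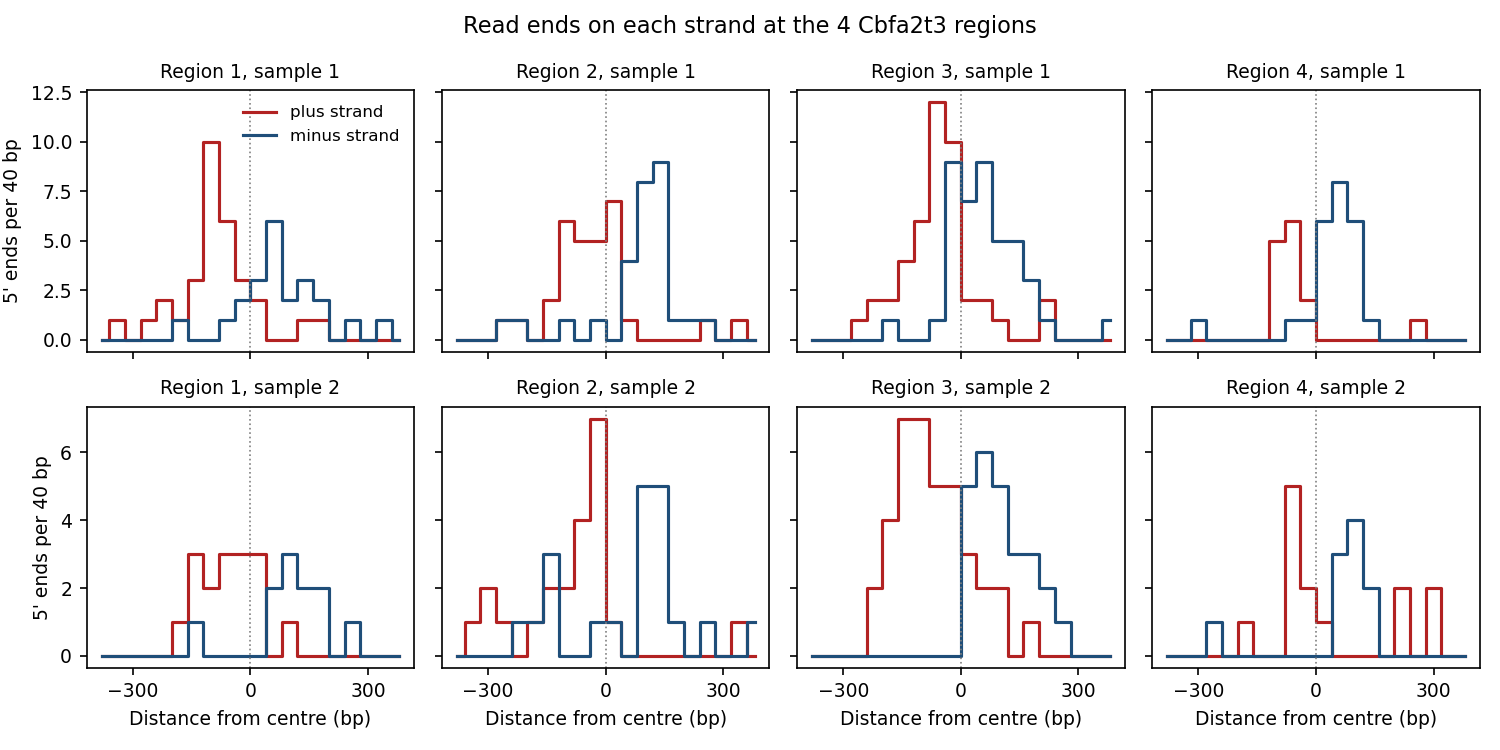
Read 5′ ends per 40 bp on the plus strand (red) and the minus strand (blue) by distance from the centre of each Cbfa2t3 region (bp), in sample 1 (top) and sample 2 (bottom). Plus ends gather to the left of the centre and minus ends to the right, with median distances between 117 and 178 bp.

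The bases under the regions were searched on both strands within 100 bp of the centre. E-boxes were found in 4 of the 4 regions, at 12 positions in all, and GATA motifs in 3, at 6 positions. A pair made of an E-box and, 7 to 9 bases further along, a GATA motif, the spacing known for the complex of Scl with a GATA factor, was found in 3 of the 4 regions. Region 1 holds CAGCTGTGTCACAGTGATAA and region 3 holds CAAGTGGCCACAGCTGATAA, both with 8 bases between the motifs. Region 4 holds CAACTGGCATCGCAGATAG, with 7 bases between them. The 3 pairs point the same way, along the plus strand.

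Among the sample 2 regions of the whole genome, 259 of 776 had at least 80% of these bases read. Of those 259, 69.1% held a GATA motif, 69.1% an E-box and 11.6% such a pair. Of 32544 RefSeq promoters of 300 bases, 29.6% held a GATA motif, 72.3% an E-box and 0.651% a pair. Region 4 fell short of that coverage and is not among the 259. Regions were searched within 100 bp of the centre and promoters over all 300 bases, so their shares are not like for like. With 4 regions from 1 locus, these shares were set side by side and not tested.

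Region 2, which had more reads than regions 1 and 4 in both samples, held 3 E-boxes and no GATA motif in the bases read within 100 bp. In region 3 an E-box (CAGCTG) overlaps a GATA motif, TGATAA, by 2 bases, and a second GATA motif lies 29 bp right of the centre. Region 4 holds 3 GATA motifs, and its pair lies 63 bp right of the centre, so that only 2 regions held a pair within 50 bp. ETS motifs, spelled AGGAAA or AGGAAG or else CGGAAA or CGGAAG, were found in 2 regions and RUNX motifs (TGTGGT or TGCGGT) in 2. ETS motifs occurred in 66.8% of the 259 regions and RUNX motifs in 28.6%. A match says only that these letters are present.

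**Figure D4:**
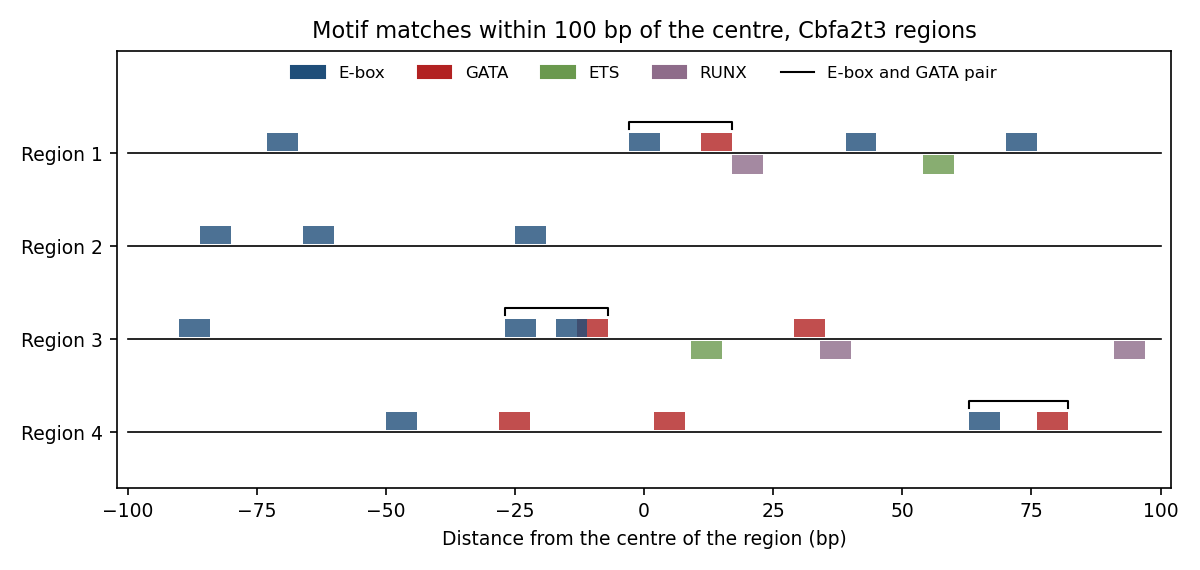
Positions of E-box, GATA, ETS and RUNX motifs within 100 bp of the centre of the 4 Cbfa2t3 regions (horizontal axis, bp, in plus strand order), with brackets over E-box and GATA pairs with 7 to 9 bases between them. Regions 1 and 3 hold a pair close to the centre, region 4 holds one at 63 bp, and region 2 holds E-boxes alone in the bases read.

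The promoter of Cbfa2t3 was also measured by matching the sequences of aligned sample 2 reads to the RefSeq promoter sequences (250 bases before to 50 after each start, build GRCm38.p6). Only reads aligned to the chromosome of the promoter were counted. They come from the same sample 2 reads as the called regions, so the count is no separate evidence. The Cbfa2t3 promoter at chr8:122699060-122699359 held 12 distinct reads where 0.540 were expected from the genome average. That was 22.2-fold (adjusted p = 6.37e-09, one-sided exact Poisson test over 32544 promoters), and 3 promoters held more reads. Of all promoters, 19 (0.0584%) passed, and 65.0% held 0 reads. The expected number takes no account of the high read density of the locus, given with the densities. The E-box and GATA pair of region 1 lies inside this promoter, its middle 108 bp before the start site. Of the 292 bases of this promoter that sample 2 reads covered, 291 were those of RefSeq.

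The second RefSeq promoter of Cbfa2t3, at chr8:122678126-122678425, held 0 reads. It holds 1 E-box and no GATA motif. The 3 promoters of Ldb1 in the table held 0 reads each, which by a one-sided 95% limit allows up to 3 reads each, several times the expected 0.540, so weak binding could not have been seen there. The table has no entry for Lmo2.

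**Figure D5:**
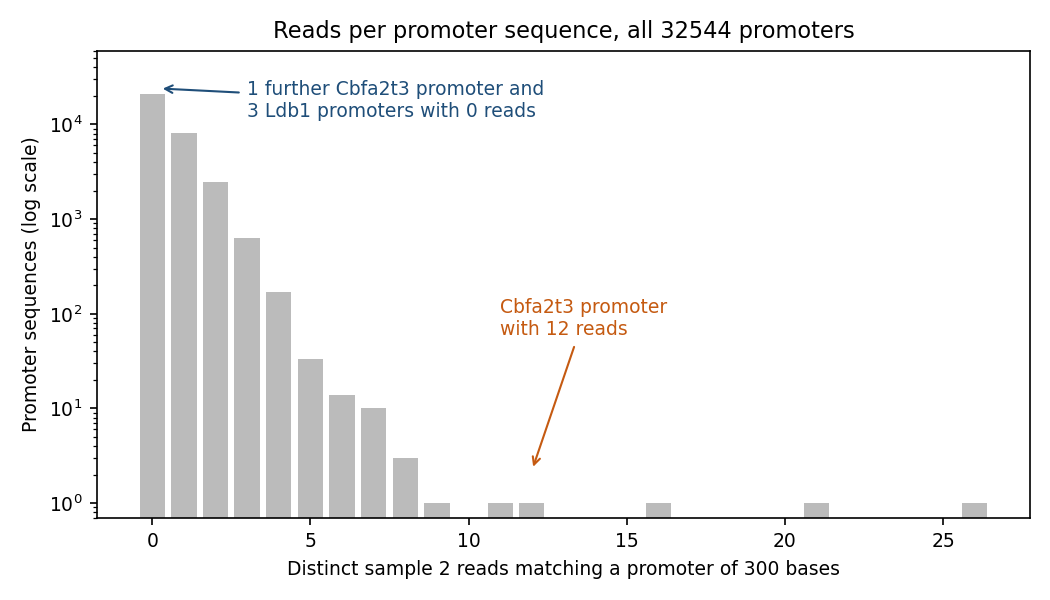
Number of promoter sequences (vertical axis, log scale) by the distinct sample 2 reads that match them (horizontal axis), for 32544 RefSeq promoters of 300 bases. One Cbfa2t3 promoter has 12 reads, with 3 promoters above it, and its second promoter and the 3 of Ldb1 are among those with 0.

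Other genes of the complex and its surroundings were taken from a list of 28, among them Tal1 (which encodes Scl), Lyl1, the E-protein genes Tcf3 and Tcf12, Gata1, Gata2, Runx1, Gfi1b, Erg and the corepressor genes Hdac2, Kdm1a and Rcor1. For 22 of them the table gave a promoter, 34 in all, and 0 of the 22 passed. Since 0.0584% of all promoters passed, a count of 0 among 34 is near that background and is no result about these genes. The largest count was 2 reads, at Lyl1, a close relative of Scl. In 7 genes, Tal1, Gata2 and Erg among them, the fullest promoter held 1 read, and 14 genes held 0. Cbfa2t2, the relative of Cbfa2t3 in the list, held 0 at its promoter. Only the 300 bases around each start were covered, so enhancers of these genes were not measured.

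The 3 loci differed in the density of reads over their whole length. Lmo2 held 3.38 distinct reads per kb in sample 1 and 2.13 in sample 2, close to the genome averages of 2.96 and 2.18. Ldb1 held 4.01 and 2.89, which is 1.35 and 1.32 times the genome average. Cbfa2t3 held 10.6 and 6.75, which is 3.59 and 3.09 times the genome average and above 99.9% and 99.7% of the intervals of that length on chromosome 8.

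The high density at Cbfa2t3 remained without the 4 called regions. The rest of the locus held 9.42 reads per kb in sample 1 and 5.94 in sample 2. Both sides of the start site were dense. On the 123 kb from the start site into the gene and beyond, the density without regions was 9.36 (95% interval 8.83 to 9.92) in sample 1 and 5.78 (5.37 to 6.23) in sample 2. On the 47.0 kb upstream it was 9.60 (8.71 to 10.6) and 6.39 (5.66 to 7.18), so the intervals of both sides overlapped. Every piece of 10 kb of this locus held at least 73 reads in sample 1, where the genome average is 29.6, and at least 42 in sample 2, where it is 21.8.

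Chromosome 8 as a whole was denser than the chromosomes of the other loci. Its median interval of 170 kb held 3.10 reads per kb in sample 1 and 2.24 in sample 2. On chromosome 2 the median interval of 150 kb held 2.01 and 1.52. On chromosome 19 the median interval of 70 kb held 2.12 and 1.64. What raised chromosome 8 was not tested. The neighbourhood was dense too. The 2 Mb before the locus held 8.33 reads per kb and the 2 Mb after it 6.25 in sample 1, with 5.39 and 4.27 in sample 2. Against these flanks the locus was 1.46 and 1.40 times as dense with the called regions, and 1.29 and 1.23 times without them. With no control library, a raised density of the whole chromosome or of the chromatin itself cannot be told apart from widespread Scl binding here. The 4 regions were called against this local average.

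Outside the 4 regions the fullest windows of the Cbfa2t3 locus were far below them. In sample 1 these were 2 windows of 10 reads and 1 of 9, at 105.0, 33.8 and 71.4 kb on the gene side of the start site, with adjusted p = 0.121, 0.300 and 0.159 (exact Poisson test). In sample 2 they were 3 windows of 6 reads at 13.4, 74.9 and 24.6 kb. None of the windows that led in one sample was the same as in the other.

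At Lmo2, the adaptor between Scl and Ldb1, no window was called. The locus lies at chr2:103700000-103850000 in mm9, and at chr2:103660682-103810682 in mm8 by 28 coincident ends, with 7 at the next best offset. The fullest window of sample 1 lay 63.8 kb upstream of the start site, at chr2:103734101-103734300, with 8 reads, 4 on each strand and 4 from each lane. That was 10.0-fold over a background of 0.8 reads (4.32 to 19.7, adjusted p = 0.0209, exact Poisson test). In sample 2 the same window held 1 read, 1.85-fold (0.0469 to 10.3), so the intervals of the samples overlapped.

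This window was the nearest to a call at Lmo2. It passed in sample 1 against a background of 50 kb (12.5-fold, adjusted p = 0.00361, exact Poisson test) or at an adjusted p under 0.05. When reads were not moved toward the fragment centre, the overlapping window at chr2:103734051-103734250 passed with 9 reads (adjusted p = 0.00361, exact Poisson test). Neither passed in sample 2 under any setting tried. A sample 2 read across the edge of the window, at chr2:103694763-103694794 in mm8, carries an E-box that lies outside the window. A read inside the window, at chr2:103694806-103694837, carries AGATAA on the minus strand. They are shown as the only bases of sample 2 within 150 bp of its centre.
Lmo2 at 63.8 kb upstream, left read: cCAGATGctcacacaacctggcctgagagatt
Lmo2 at 63.8 kb upstream, right read: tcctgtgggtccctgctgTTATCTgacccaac

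The other windows of Lmo2 were lower still. In sample 1 a window 52.0 kb upstream held 7 reads (adjusted p = 0.0844, exact Poisson test) and one 11.8 kb upstream held 6 (adjusted p = 0.383, exact Poisson test), and sample 2 held 1 and 2 reads there. In sample 2 the fullest windows held 4 reads each, 22.3, 54.7 and 4.53 kb upstream, where sample 1 held 0, 3 and 3. The windows were picked for their count in one sample, so only the count in the other is free of that choice, and there it ranged from 0 to 3. The 6 named windows lay upstream of the start site, but a window 19 kb beyond it also held 6 reads in sample 1 (6.38-fold, adjusted p = 0.415, exact Poisson test), as many as the one 11.8 kb upstream, which was named for its smaller p.

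The window 11.8 kb upstream had reads in both samples, 6 and 2, and sample 1 had 3 on each strand. One sample 2 read there, at chr2:103746821-103746852 in mm8, carries a GATA motif.
Lmo2 at 11.8 kb upstream: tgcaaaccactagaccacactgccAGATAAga

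At Ldb1, the protein that joins Lmo2 complexes to each other, no window was called either. The locus lies at chr19:46080000-46150000 in mm9, and at chr19:46058821-46128821 in mm8 by only 15 coincident ends, with 6 at the next best offset. The start site could not be placed in these builds, since no read matched its promoters, so the windows are given by position only. In sample 1 the window at chr19:46082601-46082800 held 7 reads, all on the plus strand (9.21-fold, adjusted p = 0.0844, exact Poisson test), and sample 2 held 0. With a fragment length of 140 bp in place of 120 bp, a window 50 bp further on, at chr19:46082651-46082850, was called in sample 1 with 9 reads (11.8-fold, adjusted p = 0.00189, exact Poisson test).

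The fullest Ldb1 window of sample 2 was the one that both samples came nearest to sharing. It lay at chr19:46124501-46124700 in mm8 and held 6 reads, 8.57-fold (3.15 to 18.7, adjusted p = 0.362, exact Poisson test). Sample 1 held 5 reads there, 7.14-fold (2.32 to 16.7), all from lane 8. Its bases near the centre, chr19:46124578-46124618 in mm8, hold the E-box CAGCTG and no GATA motif.
Ldb1 window at its centre: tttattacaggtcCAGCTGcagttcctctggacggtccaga

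The windows of Ldb1, like those of Lmo2, were picked for their count in 1 sample. Further windows of Ldb1 were lower. Sample 1 had 6 reads at chr19:46130801-46131000, where sample 2 had 0, and 6 at chr19:46139851-46140050, where sample 2 had 3. Sample 2 had 5 and 4 reads in the windows starting at 46088051 and 46087051 in mm8, where sample 1 had 4 and 2. The background of these last windows was 1 read per 200 bp in sample 2, above the genome average of 0.437.

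One of the Ldb1 promoters with 0 reads is shown because it holds motifs of the same kind as the Cbfa2t3 promoter that passed. It lies at chr19:46037021-46037320 in GRCm38.p6 and is printed on the minus strand, in the direction of the gene, from RefSeq. It holds AGATAA at 2 places, both read on the other strand, and 2 E-boxes. No E-box is followed by a GATA motif at 7 to 9 bases. The other 2 Ldb1 promoters hold no E-box and no GATA motif. Of all RefSeq promoters, 72.3% hold an E-box and 29.6% a GATA motif.
Ldb1 promoter: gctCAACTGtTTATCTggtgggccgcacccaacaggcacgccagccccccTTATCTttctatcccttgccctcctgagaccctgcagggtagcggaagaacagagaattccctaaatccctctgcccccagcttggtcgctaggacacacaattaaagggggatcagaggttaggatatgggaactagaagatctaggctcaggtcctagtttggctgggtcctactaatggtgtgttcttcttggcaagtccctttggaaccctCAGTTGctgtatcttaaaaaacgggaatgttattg

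Depth limits what could be seen at the genes with no call. At the background of the 6 Lmo2 windows, a call needed at least 9 reads in sample 1, which is 10.7-fold, and at least 8 in sample 2, which is 14.8-fold. At Ldb1 the same 9 and 8 reads were needed, 10.5-fold and 12.1-fold. The Cbfa2t3 regions held between 35 and 69 reads in sample 1 and between 17 and 46 in sample 2, so windows with as many reads would have passed these counts at either gene, and none was seen. At the median background of the 4 Cbfa2t3 regions, 4.0 reads in sample 1, the fold threshold of 5 set the limit, at 20 reads. This limit does not hold for the whole locus, where the background was lower elsewhere. A sample 1 window of 10 reads on a background of 1.90 was 5.26-fold. It failed on its adjusted p of 0.121 (exact Poisson test). Windows with 5 or more reads made up 0.534% of the Lmo2 locus and 1.504% of the Ldb1 locus in sample 1, against 0.355% of the genome. In sample 2 they made up 0 of 2996 windows at Lmo2 and 0.358% at Ldb1, against 0.0944%. Sites at Lmo2 and Ldb1 with fewer reads than the counts needed were not detectable at this depth, and their absence is not shown.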

How the data were processed

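Chromatin precipitated with an antiserum to Scl from HPC-7 cells was sequenced as 2 samples, which form 1 group, so no comparison between groups was made. The deposited sample 1 file lists each aligned read by its coordinates and strand, with a score that was not used. The deposited sample 2 file holds the sequence and position of uniquely placed reads, with other columns counting genome matches. Per the text deposited with the files, the builds are mm9 (sample 1) and mm8 (sample 2). Aligner versions were not given in the sources used here. Deposited files of reads with several matches, no match or poor quality were not used.

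Reads on chromosomes 1 to 19, X and Y were counted once per chromosome, strand and 5′ end, 5632119 of 5938053 in sample 1 and 4150610 of 4295961 in sample 2. They were moved by 0.5 fragment lengths (120 bp in both samples, the distance with the most pairs of plus and minus reads, on a curve nearly flat up to 140 bp). Counts in windows of 200 bp, set every 50 bp, went into an exact Poisson test, one-sided, whose mean was the genome average (1.9e9 bp) or that of the surrounding 10 kb, whichever was larger, with Benjamini-Hochberg adjustment over all windows. Windows within 200 bp were merged. Sample 2 loci were placed by the offset within 1.5 Mb at which most read ends coincided, and the offset was used only to pair positions. Promoters were tested with distinct reads of at least 25 bases that match whole and were aligned to the chromosome of the promoter. In a locus with no call, the 3 windows with the most reads in each sample were named. The members and lists were chosen with earlier results of these data known. Intervals are exact 95% Poisson or binomial intervals, and cover counting error only, since PCR copies cannot be told from separate molecules. The alternatives changed the background, the thresholds, the counting of copies, the read shift, the window, the lanes and the depth. The fragment length of 140 bp and the background without the called regions were chosen after seeing the data. The window and promoter tests were tested on simulated data. Python 3.11.15, numpy 2.4.6, scipy 1.17.1, pandas 2.3.3 and matplotlib 3.10.9 were used.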

Additional observations from a re-analysis of the deposited data

How the results depend on the processing

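The 4 Cbfa2t3 regions were called in both samples under a background of 50 kb, a chromosome average, all reads in place of distinct reads, an adjusted p under 0.05 or under 0.001, and a fragment length of 140 bp, and in lane 7 alone, lane 8 alone and sample 1 thinned to the depth of sample 2. At a fold of at least 10, sample 1 had 3 regions, sample 2 had 2 and both shared 2. With reads not moved, 4 Cbfa2t3 regions were called in sample 1 and 3 in sample 2, where region 4 was lost, and 3 were shared. The count of sample 1 rose to 5 under 4 settings, by 1 window at Lmo2 (50 kb, adjusted p under 0.05, reads not moved) or 1 at Ldb1 (140 bp). Promoters that passed numbered 29 when the first 25 bases were matched and 33 at an adjusted p under 0.05, against 19, and the Cbfa2t3 promoter was among them each time. The enrichment at regions 1 to 4 moved with the background and the window: against the genome average alone it was 57.8, 71.7, 110.8 and 49.0-fold, and in windows of 400 bp 6.04, 7.26, 10.1 and 3.65-fold. No paired analysis was possible because there is 1 group. No sample without antibody was analysed here, so places that give many reads in any library cannot be told apart from Scl binding by the counts alone.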
